A study of Mus musculus with 24 samples.

Results

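The genes described here are 38 mouse genes of 2 stress-inducible programmes, 24 immediate early genes and 14 heat shock genes, taken by gene identifier out of 36528 gene rows. The members were listed by name, by a list drawn up with earlier results of these data known, and all 38 members passed the filter on low counts. RNA was sequenced from cells of AKVPL small-intestine tumours after diphtheria toxin (DT), which was used to deplete cells expressing the stem cell marker Lgr5, or after saline. The 6 groups were DT at 24 h, saline at 24 h, DT at 48 h, saline at 48 h, DT at 96 h and saline at 96 h, with 4 libraries each. All 24 libraries carry the genotype AKVPL, EpCAM in the sample name and a sort named bulk, so by the labels the saline controls differ from the DT groups in treatment only. The labels do not spell out the letters of the genotype, the allele that makes Lgr5+ cells sensitive to the toxin, the event from which hours are counted, how tissue was dissociated, or whether libraries came from separate animals. P-values therefore measure the spread between these libraries, which may be technical.

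Immediate early genes are transcribed within minutes of a growth factor, cytokine or stress signal without new protein synthesis. They encode transcription factors such as the AP-1 subunits of the Fos and Jun families, and feedback inhibitors that end the signal. Heat shock genes are driven by the factor HSF1 when unfolded proteins accumulate, and encode chaperones that hold, refold or hand on other proteins. Both programmes are known to be switched on by enzymatic dissociation and sorting of tissue, and in the intestinal epithelium immediate early factors also act in regeneration after injury.

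The bases before the starts of 4 members are shown because they are among the members with clear differences below, and because letters of known control elements can be read in them. Each line gives the 250 bases before a start listed by RefSeq on GRCm38.p6, 5′ to 3′ on the gene's strand. Capitals mark a cyclic AMP response element core (TGACGT or ACGTCA) in Fos and Atf3, and a heat shock element (GAANNTTC or TTCNNGAA) in Hspa1b and Hsph1. Fos lies at chr12:85473640-85473889 on the plus strand, Atf3 at chr1:191183334-191183583, Hspa1b at chr17:34959239-34959488 and Hsph1 at chr5:149636337-149636586 on the minus strand. For Hsph1, which has 2 listed starts, the start with more matches is shown, so the match was part of the choice. The Hsph1 gene as listed reaches to chr5:149636498, its 5′ end on the minus strand. The printed Hsph1 bases from there on, with the capitals, therefore lie inside the listed gene.
Fos: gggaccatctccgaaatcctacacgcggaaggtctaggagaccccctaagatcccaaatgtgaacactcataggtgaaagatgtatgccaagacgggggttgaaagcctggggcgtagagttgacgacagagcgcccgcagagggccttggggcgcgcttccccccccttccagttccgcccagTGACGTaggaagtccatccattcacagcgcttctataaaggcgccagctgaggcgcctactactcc
Atf3: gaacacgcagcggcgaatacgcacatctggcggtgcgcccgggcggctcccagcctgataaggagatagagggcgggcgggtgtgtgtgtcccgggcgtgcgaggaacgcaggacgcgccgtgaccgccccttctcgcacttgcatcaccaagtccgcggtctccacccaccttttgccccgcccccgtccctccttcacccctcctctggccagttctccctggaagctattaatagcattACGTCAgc
Hspa1b: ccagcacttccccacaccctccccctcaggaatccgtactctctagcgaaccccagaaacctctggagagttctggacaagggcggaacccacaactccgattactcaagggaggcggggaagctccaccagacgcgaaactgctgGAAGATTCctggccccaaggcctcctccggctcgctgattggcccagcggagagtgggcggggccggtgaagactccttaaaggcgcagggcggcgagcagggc
Hsph1: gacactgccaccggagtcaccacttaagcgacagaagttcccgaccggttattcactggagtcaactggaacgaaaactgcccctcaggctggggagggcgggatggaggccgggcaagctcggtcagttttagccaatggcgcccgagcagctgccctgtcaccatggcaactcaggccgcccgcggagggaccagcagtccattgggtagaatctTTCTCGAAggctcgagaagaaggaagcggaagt

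The capitals begin 66 bases before the start in Fos, 8 in Atf3, 104 in Hspa1b and 33 in Hsph1. Of the members, 31 had an entry in the RefSeq table. Searched on both strands over 250 bases, the heat shock element was present in 8 of 11 heat shock genes (72.7%), 3 of 20 immediate early genes (15%) and 12.4% of the 12606 tested genes with an entry. The cyclic AMP response element core was present in 6 of 20 immediate early genes (30.0%), 1 of 11 heat shock genes (9.09%) and 10.5% of all. The AP-1 site (TGACTCA or TGAGTCA) was in 1 of 20, 1 of 11 and 4.66%, and the CArG box, bound by serum response factor, in 2 of 20, 0 of 11 and 1.40%. The cyclic AMP core and the AP-1 site share their first letters, and no match of one is a match of the other. A match describes letters only. The upstream bases of Hspa1a, the near-identical neighbour of Hspa1b, differed from those of Hspa1b at 3 of 250 positions.

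Library totals ran from 10888654 to 27707554 counts. Lgr5 averaged 81.3 ± 3.71 CPM (counts scaled by library size) in DT and 199.7 ± 16.9 CPM in saline libraries at 24 h (SD, n = 4 each), and was lower in DT at all 3 times (log2 fold change -1.30, -0.60 and -0.43). DT 48 h replicate 3 held 171 CPM of Lgr5, inside the saline range of 164 to 198 CPM at 48 h. Without this library 18 immediate early members passed the test at 48 h, as with it, and 4 heat shock members in place of 3; other libraries moved these counts more. Summed epithelial markers lay between 8113 and 10151 CPM in every library. Fibroblast markers summed to 2744 to 11419 CPM despite the EpCAM label, with levels by group given beside the results, and markers of T, natural killer and B cells were near 0 (at most 2.05 CPM).

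Between genes, levels were compared per length as the authors' size-factor-adjusted RPKM, averaged over the 12 saline libraries. Fos was the most abundant member at 839 RPKM, followed by Jun (620), Atf3 (487), Egr1 (435), Zfp36 (362) and Junb (336). Ranges over saline libraries overlapped between neighbours in this order, for example 534 to 1074 RPKM for Fos and 519 to 684 RPKM for Jun. This order pools 3 times and depends on them: at 24 h Fos (573 ± 45.0 RPKM) and Jun (568 ± 50.7 RPKM) were level in saline (SD, n = 4), and Egr1 (396 RPKM) stood above Atf3 (373 RPKM). The leading heat shock gene was Dnajb1 in rank 13 (148 RPKM), then Hspa1b (84.3 RPKM, from 22.7 to 194 RPKM over saline libraries), and Hspb1 was last at 1.89 RPKM. Counts include only uniquely aligned reads, and this touches the chaperones: 9 of 14 heat shock genes shared over 5% of their 50-base words with transcripts of other genes, up to 74.8% for Hspa8, 66.3% for Hspa1a, 62.3% for Hspa1b and 58.5% for Hsp90aa1. Their levels are therefore uncertain, and reads that align equally to Hspa1a and Hspa1b would be counted for neither. Among immediate early genes 3 of 24 shared over 5%, namely Fosl1 (58.9%, all with Ccdc85b), Jund (48.3%, all with Gm11175) and Jun (5.83%, all with Junos). Among heat shock genes Cryab (19.0%) shared words only with Hspb2. Words were compared between transcripts on both strands, and genome positions of the partner genes were not compared. Reads from a stretch where genes overlap in the genome still align uniquely, so shared words need not mean lost reads.

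Relative to saline at the same time, immediate early genes were lower after DT. At 24 h 21 of 24 fell and 0 rose by edgeR's quasi-likelihood test with Benjamini-Hochberg adjustment over 17468 genes (threshold 0.05), with a median log2 fold change of -0.48 against -0.00 over all genes. Members that were higher at an unadjusted p under 0.05 numbered 0 at each of the 3 times. The background was high in this comparison, where 18.9% of all genes were lower and 19.9% higher. At 48 h 18 of 24 fell and 0 rose (median -0.38), where 6.5% of all genes were lower and 4.83% higher. The 18 became 10 without DT 48 h replicate 4, 11 without saline 48 h replicate 1 and 11 without a filter on low counts. At 96 h 9 of 24 fell and 0 rose (median -0.29), where 3.02% of all genes were lower and 1.01% higher. The same 9 genes were lower at all 3 times (Fos, Fosb, Jun, Jund, Atf3, Klf2, Klf4, Zfp36 and Dusp1), as were 382 of all 17468 genes (2.19%). In a bulk sample, fewer cells of a type and less RNA per cell cannot be told apart.

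Summed fibroblast and endothelial markers overlapped between DT and saline libraries at each time. The 8 fibroblast markers summed to 2895 to 6668 CPM in DT and 3405 to 3996 CPM in saline libraries at 24 h, 7024 to 11419 CPM in DT and 3608 to 7298 CPM in saline at 48 h, and 5376 to 9902 CPM in DT and 2744 to 9675 CPM in saline at 96 h. Of these 8 markers 2 were higher in DT at 24 h, 0 at 48 h and 0 at 96 h, and none was at 0 in all libraries of a group. The 6 endothelial markers summed to 228 to 252 CPM in DT and 166 to 234 CPM in saline at 24 h, 242 to 349 CPM in DT and 238 to 312 CPM in saline at 48 h, and 334 to 499 CPM in DT and 261 to 527 CPM in saline at 96 h, with 1 marker higher in DT at 24 h, 1 at 48 h and 0 at 96 h. Over all genes 19.9% were higher in DT at 24 h, 4.83% at 48 h and 1.01% at 96 h. The part of either cell type in the results was not tested.

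The saline groups were not level in time. Against saline at 24 h, 6 immediate early genes were higher and 0 lower at 48 h, where 0.177% of all genes were higher and 0.177% lower, so these 6 were among 31 higher genes in all. By limma 13 immediate early genes passed here, by DESeq2 9 and with only the libraries compared 11, and 14 were higher at an unadjusted p under 0.05. At 96 h 9 were higher and 0 lower, where 2.09% of all genes were higher and 1.13% lower. Both comparisons share the 24 h saline libraries. Time cannot be told apart from the session of harvest, dissociation or sequencing in these comparisons. Median summed fibroblast markers in saline were 3462, 6411 and 7000 CPM at 24 h, 48 h and 96 h, with 0 of 8 markers higher at 48 h and 1 at 96 h than at 24 h, and median summed endothelial markers were 193, 264 and 396 CPM, with 0 of 6 higher at 48 h and all 6 at 96 h; their part in the result was not tested. Between 96 h and 48 h saline libraries 0 immediate early genes passed (2 at an unadjusted p under 0.05, 0 by DESeq2 and 0 by limma), where 0.0114% of all genes, 2 in number, were higher and 0 lower.

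**Figure D1:**
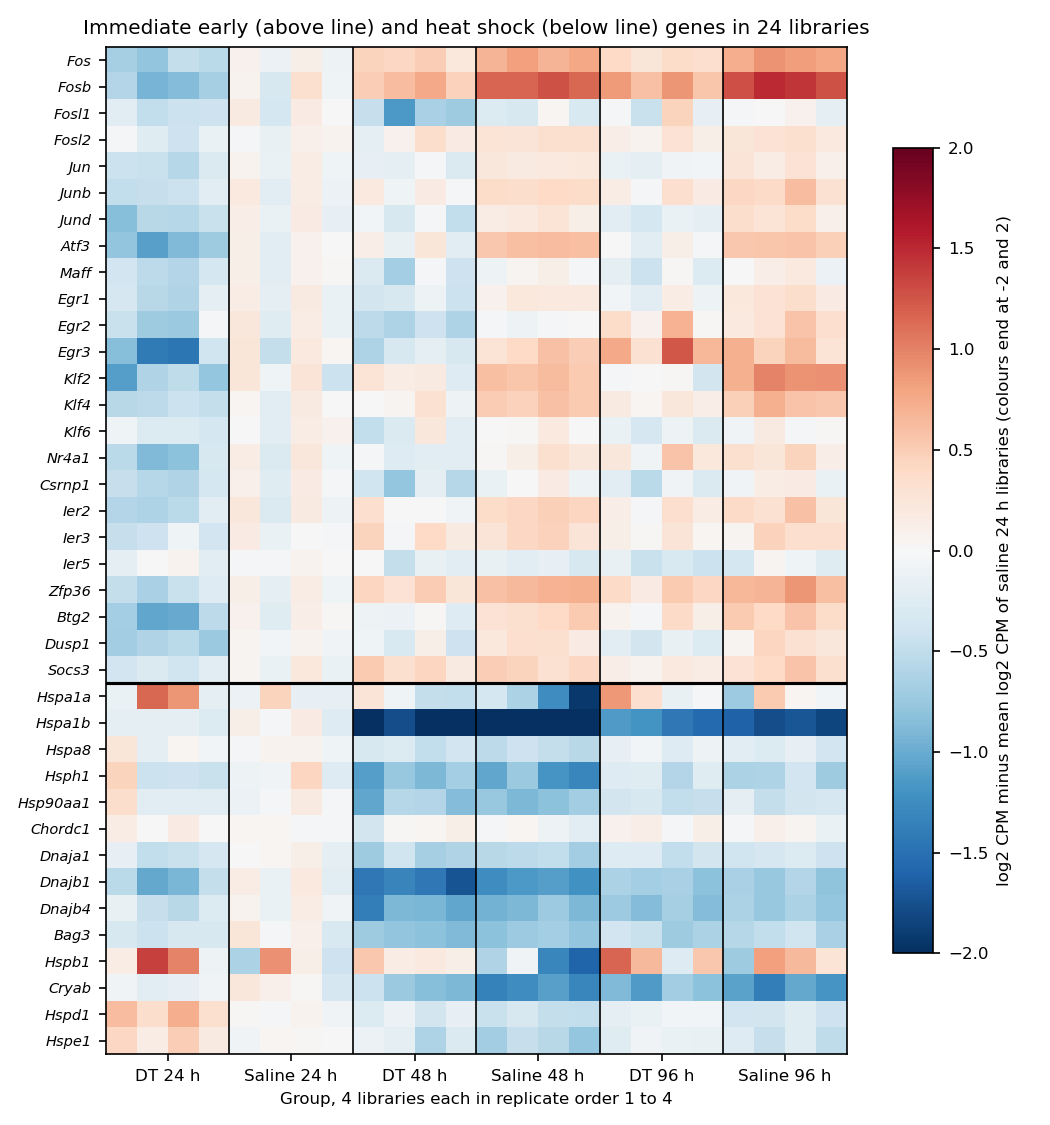
Heat map of log2 CPM of the 38 members in 24 libraries, relative to the mean of the saline 24 h libraries, with 4 libraries per group and DT left of saline at each time. Fos and Fosb are blue in DT 24 h and red in saline 48 h and 96 h, while Hspa1b, Dnajb1 and Cryab are blue in the 48 h and 96 h groups of either treatment.

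Among the AP-1 subunits, the Fos family DNA-binding partners of Jun proteins, Fos itself was measured at 846, 779, 969 and 929 CPM in DT libraries of 24 h, against 1425, 1245, 1462 and 1259 CPM in saline libraries. Fos counts were 1837, 1786, 1896 and 1558 CPM in DT libraries of 48 h, against 2161, 2372, 2148 and 2306 CPM in saline libraries. At the last time Fos stood at 1767, 1596, 1726 and 1693 CPM in DT libraries of 96 h, against 2225, 2519, 2405 and 2305 CPM in saline libraries. DT and saline libraries of Fos did not overlap at any time, and the 24 h libraries lay below those of 48 h and 96 h within each treatment. The log2 fold changes of DT over saline (± SE) were -0.61 ± 0.07, adjusted p = 9.86e-07 at 24 h, -0.34 ± 0.07, adjusted p = 0.00396 at 48 h and -0.48 ± 0.07, adjusted p = 0.000517 at 96 h. In saline, Fos was higher at 48 h (0.74 ± 0.07, adjusted p = 3.49e-06) and at 96 h (0.81 ± 0.08, adjusted p = 9.74e-07) than at 24 h.

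Fosb, a Fos relative with the same partners, differed in the same directions as Fos. Fosb gave 391, 309, 322 and 372 CPM in DT libraries of 24 h, against 619, 471, 738 and 557 CPM in saline libraries. Its 48 h values were 824, 901, 992 and 813 CPM in DT libraries of 48 h, against 1323, 1314, 1415 and 1297 CPM in saline libraries, and those of 96 h were 1063, 879, 1091 and 863 CPM in DT libraries of 96 h, against 1438, 1659, 1577 and 1417 CPM in saline libraries. Again the treatments did not overlap, and saline libraries of 48 h and 96 h were all above the highest 24 h library. Fosb fell in DT at 24 h (-0.78 ± 0.11, adjusted p = 6.91e-06), 48 h (-0.60 ± 0.11, adjusted p = 0.00111) and 96 h (-0.64 ± 0.11, adjusted p = 0.00104). In saline it was 2.24-fold higher at 48 h and 2.55-fold higher at 96 h than at 24 h (adjusted p = 1.29e-06 and adjusted p = 1.49e-07).

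Jun, the basic leucine zipper partner of Fos proteins, had 1500.1, 1493, 1365 and 1653 CPM in DT libraries of 24 h, against 2129, 1844, 2258 and 1909.9 CPM in saline libraries. At 48 h Jun had 1819.5, 1779, 1986 and 1660.4 CPM in DT libraries of 48 h, against 2386, 2297, 2333 and 2336 CPM in saline libraries. By 96 h it had 1859.9, 1785, 1938 and 1959.9 CPM in DT libraries of 96 h, against 2421, 2256, 2473 and 2166 CPM in saline libraries. Every DT library was below every saline library of its time, yet the saline groups were close to each other. Jun fell in DT at 24 h (-0.44 ± 0.07, adjusted p = 3.28e-05), 48 h (-0.37 ± 0.07, adjusted p = 0.00159) and 96 h (-0.30 ± 0.07, adjusted p = 0.0136). In saline its log2 difference from 24 h was 0.20 ± 0.07, adjusted p = 0.313 at 48 h and 0.19 ± 0.07, adjusted p = 0.135 at 96 h, neither past the threshold. Jund fell at all 3 times (-0.60, -0.39 and -0.50), and Junb at 24 h (-0.41) and 48 h (-0.31) but not past the threshold at 96 h (-0.28 ± 0.09, adjusted p = 0.106). Fosl1 fell at 24 h (-0.40 ± 0.15, adjusted p = 0.043) and 48 h (-0.51 ± 0.16, adjusted p = 0.0359) and was at 0.01 at 96 h. Fosl2 passed at no time (-0.20, -0.18 and -0.11). Junb was the third AP-1 gene that was higher in 96 h than in 24 h saline libraries (0.42 ± 0.09, adjusted p = 0.0178).

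Atf3, a stress-induced bZIP factor that pairs with Jun proteins, had the smallest adjusted p of the immediate early genes at 24 h. It was counted at 476, 390.4, 449 and 505 CPM in DT libraries of 24 h, against 899, 716, 880.1 and 822 CPM in saline libraries. Values at 48 h were 905, 744, 981 and 707 CPM in DT libraries of 48 h, against 1203, 1252, 1263 and 1253 CPM in saline libraries. For 96 h the counts were 820.1, 713, 892 and 809 CPM in DT libraries of 96 h, against 1198, 1211, 1232 and 1152 CPM in saline libraries. The highest DT library stayed below the lowest saline library at every time. Atf3 was 1.82-fold, 1.49-fold and 1.48-fold lower in DT at 24 h, 48 h and 96 h (-0.87 ± 0.10, adjusted p = 2.48e-07; -0.57 ± 0.09, adjusted p = 0.00048; -0.57 ± 0.09, adjusted p = 0.000875, log2). In saline it was higher at 48 h (0.58 ± 0.09, adjusted p = 0.00182) and 96 h (0.53 ± 0.09, adjusted p = 0.00514) than at 24 h. Maff, a small Maf protein that can pair with AP-1 factors, fell at 24 h (-0.46) and 48 h (-0.34 ± 0.11, adjusted p = 0.0451) and not past the threshold at 96 h (-0.27).

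Egr1, a zinc finger factor induced through serum response factor, had 1072, 921, 892 and 1182 CPM in DT libraries of 24 h, against 1499, 1192, 1536 and 1247 CPM in saline libraries. Its 48 h counts were 1056, 1084, 1267 and 1006 CPM in DT libraries of 48 h, against 1451, 1579.7, 1559.9 and 1562 CPM in saline libraries. At 96 h Egr1 had 1308, 1163, 1514 and 1261 CPM in DT libraries of 96 h, against 1569.6, 1667, 1740.4 and 1532 CPM in saline libraries. The treatments did not overlap at any time, with the 24 h gap the narrowest at 1182 CPM in the highest DT and 1192 CPM in the lowest saline library. Egr1 fell at 24 h (-0.43 ± 0.10, adjusted p = 0.0013) and 48 h (-0.48 ± 0.10, adjusted p = 0.00273), and at 96 h its difference was -0.31 ± 0.10, adjusted p = 0.0803. Saline times did not differ past the threshold for Egr1, Egr2 or Egr3.

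Egr3, a relative of Egr1 and Egr2, was the member whose DT difference moved most with time. Egr3 gave 57.2, 38.8, 37.97 and 78.3 CPM in DT libraries of 24 h, against 122, 74.0, 118 and 106 CPM in saline libraries. At 48 h it gave 67.4, 82.6, 90.0 and 82.6 CPM in DT libraries of 48 h, against 124, 136, 155 and 144 CPM in saline libraries, and at 96 h 175, 127, 243 and 162 CPM in DT libraries of 96 h, against 168, 141, 159 and 124 CPM in saline libraries. DT replicate 4 overlapped the saline range at 24 h, no library overlapped at 48 h, and at 96 h DT replicate 3 was the highest of all libraries. Egr3 fell in DT at 24 h (-0.99 ± 0.21, adjusted p = 0.000927) and 48 h (-0.79 ± 0.21, adjusted p = 0.0186) and was at 0.25 ± 0.21, adjusted p = 0.664 at 96 h. The difference between the 96 h and 24 h DT effects was 1.24 ± 0.30, adjusted p = 0.00921. Egr2 fell at 24 h (-0.47) and 48 h (-0.51) and was at -0.04 at 96 h.

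**Figure D2:**
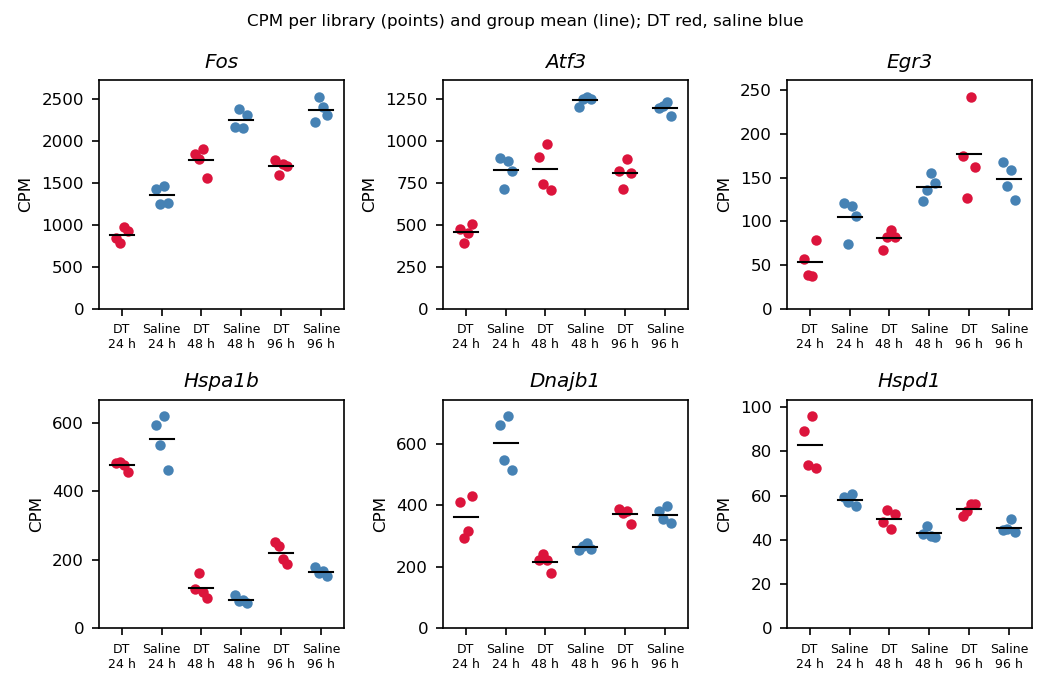
CPM of Fos, Atf3, Egr3, Hspa1b, Dnajb1 and Hspd1 in each library (points) with the group mean (line), on linear axes from 0, DT in red left of saline in blue at each time. Fos and Atf3 DT points lie below saline points at all 3 times, Egr3 points of DT reach 243 CPM at 96 h, and Hspa1b is highest in the 24 h groups.

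Of the Klf factors, which act in differentiation and quiescence, Klf4 and Klf2 fell at all 3 times. Klf4 was at 152, 157, 166 and 162 CPM in DT libraries of 24 h, against 231, 193, 254 and 225 CPM in saline libraries. Klf4 reached 223, 233, 279 and 209 CPM in DT libraries of 48 h, against 319, 309, 336 and 322 CPM in saline libraries. At 96 h Klf4 counts were 255, 231, 264 and 246 CPM in DT libraries of 96 h, against 312, 368, 333 and 328 CPM in saline libraries. The treatments did not overlap at any time, and log2 fold changes were -0.50, -0.45 and -0.43 (adjusted p 2.95e-05, 0.000942 and 0.00223). Klf2, an endothelial shear stress factor among other roles, had 44.3, 45.5, 46.1 and 35.1 CPM in DT libraries of 96 h, against 74.3, 90.0, 84.5 and 85.3 CPM in saline libraries and at 24 h 21.1 to 31.9 CPM in DT and 33.7 to 54.2 CPM in saline libraries. It had the largest fall of the class at 96 h (-0.96 ± 0.14, adjusted p = 0.000282). Klf2 was also higher in 96 h than in 24 h saline libraries (0.86 ± 0.14, adjusted p = 0.00174), as were all 6 endothelial markers, whose sum was 261 to 527 CPM at 96 h and 166 to 234 CPM at 24 h in saline; their part in the result was not tested. Klf4 was higher in saline at 48 h (0.51 ± 0.08, adjusted p = 0.00134) and 96 h (0.57 ± 0.08, adjusted p = 0.000378). Klf6 passed at no time (-0.25, -0.22 and -0.24).

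Among the other nuclear proteins, the orphan receptor Nr4a1 fell at 24 h (-0.64 ± 0.13, adjusted p = 0.000532), and stood at -0.36 at 48 h and -0.03 at 96 h without passing. Csrnp1, a nuclear protein induced by Axin1 in human cells, fell at 24 h (-0.50) and 48 h (-0.46), and Ier2 did likewise (-0.50 and -0.35). Ier3 fell at 24 h (-0.33) and did not pass at 48 h (-0.09) or 96 h (-0.19), and Ier5 passed at no time (-0.08, 0.01 and -0.18).

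Of 4 feedback inhibitors and mRNA decay factors, 4 fell at 24 h, 3 at 48 h and 2 at 96 h. Over all genes 18.9% were lower at 24 h, 6.5% at 48 h and 3.02% at 96 h. Dusp1, a phosphatase that inactivates MAP kinases, was at 311, 335, 347 and 301 CPM in DT libraries of 24 h, against 523, 487, 531 and 481 CPM in saline libraries. Its 48 h values were 475, 411, 547 and 381 CPM in DT libraries of 48 h, against 586, 635, 629.9 and 563 CPM in saline libraries, and its 96 h values were 430.5, 392, 456 and 418 CPM in DT libraries of 96 h, against 525, 679.7, 621 and 592 CPM in saline libraries. DT libraries were all below saline libraries at each time, with log2 fold changes of -0.64, -0.41 and -0.51 (adjusted p 6.38e-06, 0.0044 and 0.00153). Btg2, an antiproliferative factor that promotes mRNA deadenylation, was at 249, 196, 199 and 278 CPM in DT libraries of 24 h, against 423, 339.9, 438 and 409 CPM in saline libraries. At 48 h Btg2 was at 373, 368, 408 and 334 CPM in DT libraries of 48 h, against 488, 501, 530.3 and 574 CPM in saline libraries, and at 96 h it ranged over 389 to 520.3 CPM in DT and 517 to 596 CPM in saline libraries. Btg2 libraries of the treatments overlapped only at 96 h, when DT replicate 3 was above the lowest saline library. Btg2 fell at 24 h (-0.80 ± 0.11, adjusted p = 3.06e-06) and 48 h (-0.50 ± 0.11, adjusted p = 0.00366), and at 96 h its difference was -0.33 ± 0.11, adjusted p = 0.085.

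Zfp36, which binds AU-rich mRNA and speeds its decay, fell at all 3 times (-0.46, -0.29 and -0.33). In saline, Zfp36 had 559, 455, 568 and 483 CPM at 24 h, 772, 807, 829 and 842 CPM at 48 h and 817, 826, 946 and 779 CPM at 96 h. All later libraries exceeded the 24 h libraries (0.65 ± 0.09, adjusted p = 0.00029 at 48 h; 0.71 ± 0.09, adjusted p = 0.000114 at 96 h). Socs3, the cytokine signalling inhibitor, had 193, 169, 214 and 169 CPM at 24 h, 259, 252, 228 and 247 CPM at 48 h and 226, 244, 275 and 232 CPM at 96 h in saline, with no overlap of the later libraries with those of 24 h. Socs3 was higher at 48 h (0.40 ± 0.08, adjusted p = 0.0155) and 96 h (0.39 ± 0.08, adjusted p = 0.0128), and in DT it fell at 24 h (-0.33) with no call at 48 h (-0.05) or 96 h (-0.26).

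Several of these calls were near the threshold. At 24 h 18 of the 21 lower genes kept their call under all 18 alternative settings, at 48 h 8 of 18 did and at 96 h 7 of 9. At 48 h the call was lost most often for Ier2 in 11 (adjusted p 0.0502 to 0.138), Maff in 10 (adjusted p 0.0517 to 0.153), Zfp36 in 9 (adjusted p 0.0512 to 0.126), Junb in 8 (adjusted p 0.0579 to 0.108), Egr2 in 7 (adjusted p 0.0534 to 0.0844) and Fosl1 in 7 (adjusted p 0.052 to 0.109) of 18 settings, and at 96 h for Zfp36 in 10 (adjusted p 0.0508 to 0.161) and Jun in 3 (adjusted p 0.0634 to 0.0935).

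In some groups a single library held the highest or lowest value of most immediate early genes, and in others these were spread. Replicates 1 to 4 were lowest in 5, 8, 8 and 3 genes in DT at 24 h, and in 9, 6, 2 and 7 in saline at 48 h. The same count over all genes was not made. Replicate 3 held the highest value of 21 of 24 immediate early genes among the DT 96 h libraries and replicate 2 the lowest of 21, and in saline at 24 h replicate 2 was lowest in 19 of 24. The mean log2 CPM of the class relative to saline 24 h was -0.52 ± 0.10 in DT and 0.00 ± 0.16 in saline at 24 h (SD, n = 4 each), -0.07 ± 0.13 in DT and 0.31 ± 0.05 in saline at 48 h, and 0.08 ± 0.15 in DT and 0.38 ± 0.09 in saline at 96 h. As a share of all counts, the 24 genes took 0.875% in DT and 1.21% in saline at 24 h, 1.23% in DT and 1.58% in saline at 48 h, and 1.29% in DT and 1.62% in saline at 96 h. The DT mean lay below the saline mean at each time, and the 48 h and 96 h means of either treatment lay above its 24 h mean.

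**Figure D3:**
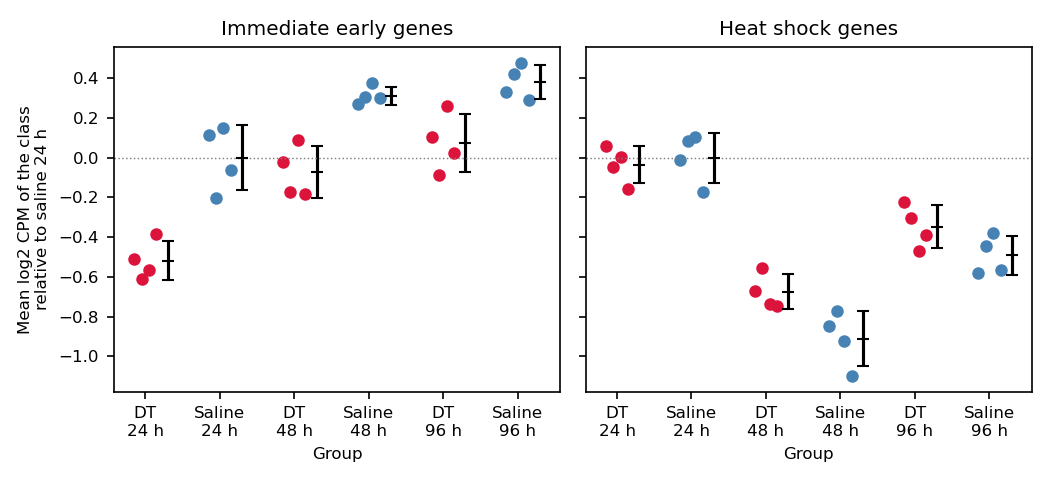
Mean log2 CPM of the 24 immediate early genes (left) and 14 heat shock genes (right) in each library relative to the saline 24 h mean, with group mean ± SD (black, n = 4), DT in red left of saline in blue at each time. Immediate early DT points at 24 h lie between -0.61 and -0.39, below all saline points; heat shock points at 48 h lie between -1.10 and -0.55.

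A wider list of 37 other growth factor induced primary response genes held calls in either direction. After DT 4 were higher and 17 lower at 24 h (median -0.24), 2 and 8 at 48 h (-0.16), and 1 and 5 at 96 h (-0.16). Over all genes 19.9% were higher and 18.9% lower at 24 h, 4.83% and 6.5% at 48 h, and 1.01% and 3.02% at 96 h, so the 4 higher genes at 24 h were a smaller share of the list than of all genes. Nfkbiz, an inhibitor-family regulator of NF-kB, fell at 24 h (-0.78 ± 0.09, adjusted p = 9.31e-07). Myc, the growth-promoting factor, rose at 24 h (0.51 ± 0.07, adjusted p = 3.4e-06), 48 h (0.51) and 96 h (0.38), and Trib1, a pseudokinase, fell at 24 h (-0.60), 48 h (-0.48) and 96 h (-0.45). In saline 5 were higher and 2 lower at 48 h than at 24 h, among them Sik1 (0.51), Trib1 (0.65) and Bhlhe40 (0.64), and 6 were higher and 3 lower at 96 h, where 0.177% and 0.177% of all genes were higher and lower at 48 h, and 2.09% and 1.13% at 96 h. Of 12 other AP-1 dimer partners 0 rose and 5 fell at 24 h, led by Mafg (-0.64 ± 0.09, adjusted p = 1.04e-05), 2 fell at 48 h and 1 at 96 h. Of 7 genes for serum response factor, its cofactors and Creb1, 2 fell at 24 h (18.9% of all genes fell), Elk1 (-0.39) and Elk3 (-0.19).

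Most heat shock genes were lower in saline libraries of 48 h and 96 h than in those of 24 h, which both comparisons share. Here too, time cannot be told apart from the session of harvest, dissociation or sequencing. In saline 11 of 14 were lower and 0 higher at 48 h than at 24 h, with a median log2 fold change of -0.81 against -0.01 over all genes; these were 11 of the 31 lower genes in the whole table (the 0.177% above). At 96 h 8 of 14 were lower and 0 higher than at 24 h (median -0.36), where 1.13% of all genes were lower and 2.09% higher, and the 8 became 5 without saline 96 h replicate 2 or 4. Between 96 h and 48 h 1 was higher and 0 lower, with 10 of 14 higher at an unadjusted p under 0.05. All 11 calls at 48 h held under every alternative, including the omission of each library of the 2 groups compared, and 5 of 8 did at 96 h. The call at 96 h was lost for Hspe1 in 9 (adjusted p 0.0504 to 0.145), Dnaja1 in 2 (adjusted p 0.0539 to 0.0563) and Hspd1 in 2 (adjusted p 0.0533 to 0.0675) of 17 settings. Macrophage markers, of which 5 of 8 were lower in 96 h than in 24 h saline libraries, summed to 322 to 441 CPM at 24 h, 185 to 421 CPM at 48 h and 140 to 225 CPM at 96 h in saline, and their part in the result was not tested.

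In DT against saline, heat shock calls at 24 h ran in both directions. At 24 h 2 of 14 heat shock genes rose and 4 fell (median -0.11), where 19.9% of all genes were higher and 18.9% lower, so the counts were near the share over all genes. At 48 h 3 rose and 0 fell (0.16), where 4.83% of all genes were higher and 6.5% lower, and the 3 became 1 without DT 48 h replicate 2, without saline 48 h replicate 4 or with only the libraries compared. At 96 h 0 rose or fell (0.16), where 1.01% of all genes were higher and 3.02% lower, with 4 at an unadjusted p under 0.05, all higher, 2 by DESeq2 and 2 by limma. The class took 0.189% of counts in DT and 0.222% in saline at 24 h, 0.104% in DT and 0.0978% in saline at 48 h, and 0.145% in DT and 0.130% in saline at 96 h.

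**Figure D4:**
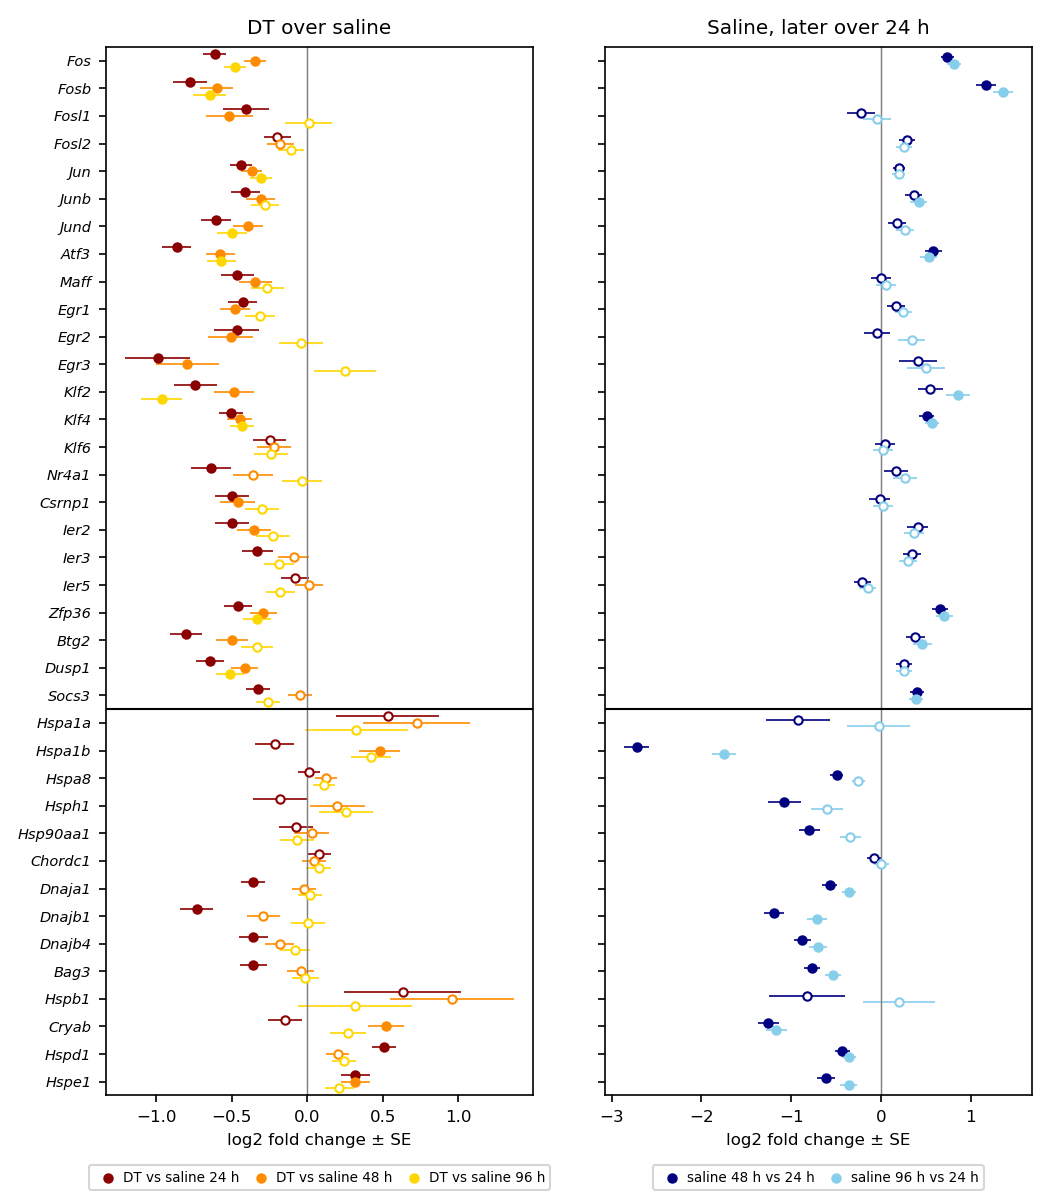
Log2 fold change ± SE of each member for DT over saline at 3 times (left) and for later over 24 h saline libraries (right), with filled points past the threshold and open points not. Immediate early genes (above the line) lie mostly left of 0 in the left panel, and all heat shock genes (below the line) lie left of 0 at 48 h in the right panel, down to -2.72 for Hspa1b; at 96 h Hspb1 (0.20) and Chordc1 (0.00) do not.

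Hspa1b, an inducible cytosolic Hsp70 of the kind that is nearly silent without stress, showed the widest time difference. It was at 481, 486, 477 and 456 CPM in DT libraries of 24 h, against 594, 535, 618 and 461 CPM in saline libraries. By 48 h it was at 113, 161, 106 and 89.1 CPM in DT libraries of 48 h, against 97.5, 80.6, 84.0 and 73.0 CPM in saline libraries. At 96 h it was at 251, 240.1, 203 and 187 CPM in DT libraries of 96 h, against 178, 160.1, 168 and 153 CPM in saline libraries. Saline libraries of 48 h and 96 h lay far below those of 24 h, those of 48 h lay below those of 96 h, and DT libraries were all above saline at 96 h. In saline Hspa1b was 6.58-fold lower at 48 h (-2.72 ± 0.14, adjusted p = 3.83e-11) and 3.35-fold lower at 96 h (-1.74 ± 0.14, adjusted p = 1.49e-07) than at 24 h, and higher at 96 h than at 48 h (0.97 ± 0.13, adjusted p = 0.00501; without saline 48 h replicate 4 the adjusted p was 0.0543). It was 1 of the 2 genes in the whole table that passed between 96 h and 48 h saline. DT over saline gave -0.22 ± 0.13, adjusted p = 0.207 at 24 h, 0.48 ± 0.13, adjusted p = 0.0236 at 48 h and 0.42 ± 0.13, adjusted p = 0.0804 at 96 h. The 48 h call was lost in 5 of 18 settings (adjusted p 0.0603 to 0.113).

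Hspa1a, its near-identical neighbour, spread widely inside groups. Hspa1a gave 29.8, 72.2, 60.2 and 28.7 CPM in DT libraries of 24 h, against 30.2, 44.8, 29.1 and 29.1 CPM in saline libraries. Its 48 h counts were 39.0, 30.8, 23.5 and 23.2 CPM in DT libraries of 48 h, against 25.5, 21.0, 13.9 and 8.56 CPM in saline libraries, and its 96 h counts were 59.4, 41.4, 29.5 and 32.2 CPM in DT libraries of 96 h, against 19.7, 47.2, 33.5 and 31.4 CPM in saline libraries. The groups overlapped in the DT comparisons at all 3 times, and no comparison of Hspa1a passed (-0.93 ± 0.36, adjusted p = 0.367 for saline 48 h against 24 h). Hspa8, the constitutive Hsp70, differed less than Hspa1b, with 111, 83.1, 97.0 and 90.6 CPM in DT libraries of 24 h, against 91.3, 98.4, 98.6 and 88.5 CPM in saline libraries. It had 75.4, 77.7, 66.7 and 71.8 CPM in DT libraries of 48 h, against 65.2, 70.3, 67.9 and 64.1 CPM in saline libraries and 83.6, 90.3, 78.9 and 88.1 CPM in DT libraries of 96 h, against 81.4, 78.2, 83.9 and 72.4 CPM in saline libraries. In saline Hspa8 was lower at 48 h than at 24 h (-0.49 ± 0.07, adjusted p = 0.000682), and it passed in no DT comparison (0.01, 0.12 and 0.11). Hsph1, the Hsp110 exchange factor of Hsp70, was 2.11-fold lower at 48 h than at 24 h in saline (-1.08 ± 0.18, adjusted p = 0.00422).

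The J-domain proteins, which deliver clients to Hsp70, made up 3 of the 4 heat shock members that fell in DT at 24 h. Over all genes 18.9% were lower at 24 h, and the 4 of 14 members were near that share. Dnajb1 was at 411, 293, 317 and 431 CPM in DT libraries of 24 h, against 661, 548, 688 and 514 CPM in saline libraries. At 48 h it was at 222, 241, 223 and 181 CPM in DT libraries of 48 h, against 253, 269, 278 and 258 CPM in saline libraries, and at 96 h at 387, 374, 381 and 338 CPM in DT libraries of 96 h, against 379.9, 354, 398 and 341 CPM in saline libraries. DT libraries were all below saline at 24 h and 48 h and overlapped with saline at 96 h. Dnajb1 fell in DT at 24 h (-0.73 ± 0.11, adjusted p = 1.45e-05) and not past the threshold at 48 h (-0.29 ± 0.11, adjusted p = 0.095) or 96 h (0.01). In saline it was lower at 48 h (-1.19 ± 0.11, adjusted p = 1.29e-06) and 96 h (-0.71 ± 0.11, adjusted p = 0.0012) than at 24 h.

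Dnaja1 was at 77.5, 61.4, 63.8 and 68.3 CPM in DT libraries of 24 h, against 86.9, 89.1, 94.4 and 76.8 CPM in saline libraries, and Dnajb4 at 62.6, 50.1, 47.2 and 57.5 CPM in DT libraries of 24 h, against 72.5, 63.1, 76.4 and 65.6 CPM in saline libraries. Both fell at 24 h (-0.36 ± 0.08, adjusted p = 0.000907 for Dnaja1; -0.36 ± 0.10, adjusted p = 0.00455 for Dnajb4), although Dnaja1 in DT replicate 1 exceeded the lowest saline library. In saline Dnajb4 was lower at 48 h (-0.87) and 96 h (-0.70), as was Dnaja1 (-0.57 and -0.36). Bag3, the nucleotide exchange factor that links Hsp70 to autophagy, was at 150.2, 139, 150.1 and 150.1 CPM in DT libraries of 24 h, against 222, 181, 199 and 152 CPM in saline libraries. It fell in DT at 24 h (-0.36 ± 0.09, adjusted p = 0.00222), and in saline it was lower at 48 h (-0.77 ± 0.09, adjusted p = 1.76e-05) and 96 h (-0.54 ± 0.09, adjusted p = 0.00187) than at 24 h.

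Of the Hsp90 pair, Hsp90aa1, the inducible Hsp90, was lower at 48 h than at 24 h in saline (-0.80 ± 0.11, adjusted p = 0.000459), and Chordc1, its co-chaperone, passed in no comparison (log2 fold changes from -0.07 to 0.08). Hspb1, a small heat shock protein, was barely detected at 2.14, 5.02, 3.84 and 1.81 CPM in DT libraries of 24 h, against 1.25, 3.67, 2.11 and 1.46 CPM in saline libraries. It gave 2.82, 2.15, 2.21 and 2.10 CPM in DT libraries of 48 h, against 1.28, 1.85, 0.786 and 0.639 CPM in saline libraries and 4.37, 3.04, 1.62 and 2.82 CPM in DT libraries of 96 h, against 1.19, 3.44, 3.03 and 2.35 CPM in saline libraries. Hspb1 passed in no comparison, with DT log2 fold changes of 0.63, 0.96 and 0.32. Cryab, the alpha-B crystallin, was at 34.2, 31.0, 31.9 and 34.2 CPM in DT libraries of 24 h, against 41.8, 38.4, 36.4 and 28.4 CPM in saline libraries. By 48 h it was at 26.8, 21.4, 19.97 and 19.2 CPM in DT libraries of 48 h, against 14.1, 15.2, 17.0 and 14.5 CPM in saline libraries. It rose in DT at 48 h (0.52 ± 0.12, adjusted p = 0.00539), where DT libraries were all above saline, and in saline it was lower at 48 h (-1.26 ± 0.12, adjusted p = 1.29e-06) and 96 h (-1.17 ± 0.12, adjusted p = 2.64e-06) than at 24 h.

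The mitochondrial chaperonin pair rose in DT at 24 h. Hspd1 was at 89.1, 73.9, 95.8 and 72.3 CPM in DT libraries of 24 h, against 59.4, 57.1, 60.7 and 55.3 CPM in saline libraries, with no overlap. Hspe1, its co-chaperonin, was at 59.2, 49.1, 62.5 and 50.4 CPM in DT libraries of 24 h, against 42.4, 45.6, 44.9 and 44.4 CPM in saline libraries, also with no overlap. Hspd1 rose at 24 h (0.51 ± 0.08, adjusted p = 1.56e-05) and Hspe1 at 24 h (0.32 ± 0.09, adjusted p = 0.00952) and 48 h (0.32 ± 0.10, adjusted p = 0.0345). The 48 h call was lost for Hspe1 in 7 (adjusted p 0.071 to 0.117) of 18 settings. In saline both were lower at 48 h than at 24 h (-0.43 and -0.61). Hspd1 and Hspe1 each shared 44.8% of their 50-base words with transcripts of other genes, so their levels are uncertain.

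The DT effect is the log2 fold change of DT over saline. A positive difference between times means a higher ratio of DT to saline at the later time, not a higher level. The DT effect differed between times for few members. Between 48 h and 24 h it was higher for 2 heat shock genes and 0 immediate early genes (3 at an unadjusted p under 0.05, 0 by DESeq2 and 0 by limma), where 0.555% of all genes were higher and 2.34% lower. These were Cryab (0.67 ± 0.16, adjusted p = 0.024) and Hspa1b (0.70 ± 0.19, adjusted p = 0.0455), and the Hspa1b call was lost in 15 of 26 settings. Between 96 h and 24 h it was higher for 3 immediate early genes, Egr3, Nr4a1 (0.60 ± 0.19, adjusted p = 0.0368) and Btg2 (0.47 ± 0.15, adjusted p = 0.0419), and 3 heat shock genes, where 4.08% of all genes were higher and 7.82% lower. The heat shock genes were Dnajb1 (0.74 ± 0.16, adjusted p = 0.00335), Hspa1b (0.64 ± 0.19, adjusted p = 0.028) and Dnaja1 (0.38 ± 0.11, adjusted p = 0.0305). With a library left out, the 2 at 48 h became 0 to 4, the 3 immediate early genes at 96 h 1 to 4 and the 3 heat shock genes 1 to 5. The calls of Nr4a1, Btg2 and Dnaja1 were lost in 9, 9 and 8 of 26 settings.

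Other chaperones were compared in the same way. Of 28 other HSF1 target chaperones 12 rose and 6 fell in DT at 24 h (median 0.12), where 19.9% of all genes were higher and 18.9% lower, so the share that fell was near that over all genes. At 48 h 1 rose and 1 fell, where 4.83% of all genes were higher and 6.5% lower. Hspa2, an Hsp70 family member, fell at 24 h (-0.97 ± 0.08, adjusted p = 7.73e-09), while mitochondrial Hspa9 (0.63 ± 0.06, adjusted p = 1.21e-08) and the Hsp110 member Hspa4 (0.35 ± 0.05, adjusted p = 1.27e-05) rose. All 8 subunits of the cytosolic TRiC chaperonin rose at 24 h (median 0.37), led by Cct6a (0.52 ± 0.06, adjusted p = 2.47e-07), and 5 of 8 rose at 48 h. In saline 2 of the 28 were lower at 48 h and at 96 h than at 24 h (0.177% and 1.13% of all genes), Dnaja4 (-0.84 and -0.55) and Hsp90ab1 (-0.31 and -0.27).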

How the data were processed

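RNA of cells sorted from small-intestine tumours was extracted after sorting with a micro column kit, per the labels' protocols, as polyA RNA. Alignment used GSNAP on GRCm38, per the submitters' processing notes. Per the file headers the count column holds the reads uniquely aligning to each gene model, and the deposited RPKM value is adjusted by a size factor; versions and further steps were not stated. Of 36528 gene rows 31049 (85.0%) matched a symbol. Deposited counts of all 24 libraries were fitted together with edgeR 4.0.16 in R 4.3.3 (TMM scaling, filterByExpr, robust quasi-likelihood fit, 1 mean per group, 18 residual degrees of freedom, common BCV 0.120); 17468 genes were tested two-sided, adjusted by Benjamini-Hochberg, threshold 0.05. Adjusted p-values in the text are from this fit unless another tool is named. CPM use TMM library sizes; the SE is the log2 fold change over the root of F. Alternatives were DESeq2 1.42.0, limma 3.58.1, other scalings and filters, a replicate block, only the libraries compared, and each library left out. A library was left out only in the comparisons that used its group. Scripts were tested on simulated data. No 2 libraries of the same group agreed within sampling noise (smallest chi-square per degree of freedom 4.24). Libraries were grouped by labelled treatment and time. The members, lists and tests were chosen with earlier results of these data known. Values were given for up to 6 called members per class and comparison with the smallest p, for 8 fixed members, and for up to 3 called genes of each other list.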

Additional observations from a re-analysis of the deposited data

Results flagged for a closer look

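Of 228 combinations of a member and a group of 4 libraries, 12 had a library whose gap to its nearest neighbour, as a share of the group's range, exceeded Dixon's 95% critical value for 4 values; chance gives about 1 in 20. In saline at 48 h these were Fosl1 in replicate 3 (75.2 CPM), Egr1 in replicate 1 (1451 CPM) and Klf6 in replicate 3 (1061 CPM). In DT at 48 h they were Nr4a1 (468 CPM), Ier2 (349.5 CPM) and Hspb1 (2.82 CPM), all in replicate 1. In DT at 24 h Hsph1 (431 CPM) and Hsp90aa1 (92.7 CPM) stood high in replicate 1 and Bag3 (139 CPM) stood low in replicate 2. Hspa1a stood high in saline 24 h replicate 2 (44.8 CPM), Klf2 low in DT 96 h replicate 4 (35.1 CPM), and Hsph1 low in DT 96 h replicate 3 (210.6 CPM).

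By edgeR's interaction test the DT effect differed between times for 7 members in 8 tests. Between 48 h and 24 h the difference was 0.67 for Cryab (adjusted p = 0.024) and 0.70 for Hspa1b (adjusted p = 0.0455) on the log2 scale. Between 96 h and 24 h it was 1.24 for Egr3 (adjusted p = 0.00921), 0.60 for Nr4a1, 0.47 for Btg2, 0.74 for Dnajb1 (adjusted p = 0.00335), 0.64 for Hspa1b and 0.38 for Dnaja1.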

How the results depend on the processing

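There were 10 other settings (scaling, filter, tool, replicate block, only the libraries compared). In addition, each of 24 libraries was left out in the comparisons that used its group. Across all of these 0 calls reversed, 5713 member values kept their side of the threshold, 175 lost a call and 78 gained a call. The counts of called immediate early genes at 48 h (DT against saline, 18) became 11 without a low-count filter and 10 to 18 with a library left out (10 without DT 48 h replicate 4, 11 without saline 48 h replicate 1). For saline 48 h against 24 h the 6 became 13 by limma and 11 with only the libraries compared. For the 96 h minus 24 h DT effect the 3 became 1 without a filter or with only the libraries compared, and 1 to 4 with a library left out (1 without DT 24 h replicate 2 or 3, DT 96 h replicate 1 or 3, saline 24 h replicate 3, or saline 96 h replicate 2 or 4). Heat shock counts at 48 h (3) became 1 with only the libraries compared and 1 to 4 with a library left out (1 without DT 48 h replicate 2 or saline 48 h replicate 4). At 96 h the 0 became 2 by DESeq2, limma and only the libraries compared, and 1 by upper quartile scaling. For saline 96 h against 24 h the 8 became 5 to 9 (5 without saline 96 h replicate 2 or 4), and for 96 h against 48 h the 1 became 0 to 1 (0 without saline 48 h replicate 4). For the 48 h minus 24 h DT effect the 2 became 1 without a filter or with only the libraries compared, and 0 to 4 with a library left out (0 without DT 24 h replicate 2 or saline 48 h replicate 2; 4 without saline 24 h replicate 4; 1 without DT 24 h replicate 3, DT 48 h replicate 2, saline 24 h replicate 1, 2 or 3, or saline 48 h replicate 1, 3 or 4). For 96 h minus 24 h the 3 became 1 without a filter and 1 to 5 with a library left out (1 without DT 24 h replicate 3, DT 96 h replicate 1 or 2, or saline 96 h replicate 4; 5 without DT 24 h replicate 1 or saline 24 h replicate 4). The cause was not tested. Correlations of deviations were -0.356 to 0.130 between same-numbered DT and saline libraries of a time. Between libraries of different number they were -0.286 to 0.284. The numbers thus gave no sign of pairing, but a shared animal or session behind them cannot be told from these values. With the replicate number as a block the heat shock count at 96 h was 1 in place of 0, and with the block within time the 48 h minus 24 h heat shock count was 0 in place of 2. Low counts limit Hspb1, and shared sequence limits the Hsp70 genes Hspa1a, Hspa1b and Hspa8. By the share of 50-base words it also limits Hsp90aa1 (58.5%), Hspb1 (51.6%), Hspe1 (44.8%), Hspd1 (44.8%) and Dnaja1 (28.8%).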
